A study of Mus musculus with 4 samples.

Results

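The nuclear genes for subunits of the mitochondrial respiratory chain and ATP synthase were followed in m6A-seq data from mouse macrophages. They were chosen by gene name as Nduf subunits, Sdha to Sdhd, Uqcr, Cox4 to Cox8 and Atp5 genes, without names that end in -ps and a number. Of 13067 genes with at least 1 listed m6A peak, 67 met this rule, and all 67 names were found in RefSeq. RefSeq holds 87 protein-coding genes with such names, of which 64 were among the 67 and 23 were not analysed here. By name, 31 of the 67 genes were counted with complex I, 4 with complex II, 7 with complex III, 12 with complex IV and 13 with complex V. Ndufb1-ps and Ndufs5-ps, whose names end in -ps without a number, met the rule and are among the 31. Not each of the 67 names therefore need stand for a gene that encodes a subunit. Ndufa4 was counted with complex IV, where its protein sits.

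Both groups were macrophages grown from C57BL/6 bone marrow for 7 days with M-CSF, a growth factor that drives macrophage development. The KO group carried LysM-cre and Mettl3fl/fl, and the WT group carried Mettl3fl/fl alone, so both had the floxed alleles and only KO had the Cre recombinase. Mettl3 is the catalytic subunit of the enzyme that writes m6A on messenger RNA, and LysM-cre is expressed from the lysozyme 2 gene, Lyz2, in myeloid cells. The deletion therefore depends on how fully Cre acted in each culture, and the Mettl3 transcript was not analysed here. Each genotype had 1 IP library, made from RNA bound by an m6A antibody, and 1 input library, made from the same kind of RNA without the antibody. With 1 library of each kind, 4 in all, no difference has a replicate check and no test across samples was possible.

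The respiratory chain passes electrons from NADH and succinate to oxygen through complexes I to IV and pumps protons across the inner mitochondrial membrane, and complex V uses the proton gradient to make ATP. The mitochondrial genome encodes some core subunits, and nuclear genes such as those described here encode others, as proteins made in the cytosol and imported. In macrophages, oxidative phosphorylation is known for its link to alternative activation, while inflammatory activation is accompanied by greater use of glycolysis. Many of these genes have short transcripts, and in messenger RNA m6A is known to gather near the stop codon and in the 3′ UTR.

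The libraries carried the macrophage genes Cd68 (994 FPKM in KO input and 1030 FPKM in WT input), Adgre1 (269 FPKM in KO and 247 FPKM in WT) and Spi1 (101 FPKM in KO and 90.5 FPKM in WT). FPKM gives a transcript's abundance per unit of its length, scaled to the size of the library. Of 8 macrophage markers, 6 had a listed peak and 5 a listed level, and Itgam and Mertk had no listed peak. Lyz2, whose locus carries the Cre, had 6620 FPKM in KO input and 10500 FPKM in WT input. The neutrophil genes S100a8 (46.4 FPKM in KO and 77.7 FPKM in WT) and S100a9 (90.2 FPKM in KO and 155 FPKM in WT) were lower in KO, and of 5 neutrophil markers 2 had a level. A listed peak was held by 3 of the 5 neutrophil markers, 2 of 4 dendritic cell markers (Zbtb46 and Ccr7) and 3 of 5 stromal markers (Col1a1, Col1a2 and Dcn). None of the dendritic cell or stromal markers had a listed level, and levels are listed only for genes with a differential peak. The part of other cells in the values that follow was not tested. The total read number of each library is unknown, and intervals given with shares cover counting error only. Intervals given with medians cover the spread over genes or peaks of these libraries and not variation between libraries.

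Promoter sequences show motifs that some of these genes share outside the peak data. Within the 250 bases before and 50 after the annotated start, RefSeq (GRCm38.p6) gave a promoter for 52 of the 67 genes. The NRF1 motif CGCATGCG, bound by a factor known to act on nuclear genes for mitochondrial proteins, stood in 9 of 52 (17.3%), against 2.07% of 27025 promoters. It reads the same on both strands. The ETS motif CCGGAAG, or CTTCCGG on the other strand, stood in 16 (30.8%), against 9.93% of all promoters. The YY1 motif AAGATGGCG, or CGCCATCTT on the other strand, stood in 6 (11.5%), against 1.64%. A match describes letters in this window and is not a measured binding site. Among genes with a promoter whose m6A peaks were higher in KO, 5 of 25 held the NRF1 motif, beside the 9 of 52. A link between motif and peaks was not tested. The following 60-base windows show the NRF1 motif, in capitals, in 3 genes whose m6A peaks were higher in KO, each written 5′ to 3′ on the minus strand, which is the strand of the gene. They lie at chr15:102671055-102671114, chr5:108434415-108434474 and chr5:115349086-115349145, and the motif begins 41, 49 and 161 bases before the start.
Atp5g2: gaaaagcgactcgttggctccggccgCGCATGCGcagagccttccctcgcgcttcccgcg
Atp5k: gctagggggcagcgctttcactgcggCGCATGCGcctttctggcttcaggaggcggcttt
Cox6a1: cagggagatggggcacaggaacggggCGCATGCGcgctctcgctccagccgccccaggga

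The first comparison concerned which of these transcripts carried a called m6A peak in each genotype. The KO list held 92 peaks assigned to 64 of the genes, and the WT list held 57 peaks assigned to 42. By assigned name, 39 genes stood in both lists and 25 of 67 (37.3%) in the KO list alone, while 24.2% of all genes with a peak in either list stood in the KO list alone. Ndufs1, Sdhb and Uqcrh stood in the WT list alone (3 genes), against 10.4% of all genes. Ndufs1 encodes an iron-sulfur core subunit of complex I, Sdhb the iron-sulfur subunit of complex II, and Uqcrh the hinge protein of complex III. The WT peak of Uqcrh shared bases with a KO peak that was assigned to another gene, so its absence from the KO list is one of assignment. In the same way, KO peaks of Cox6a2, Cox6b1 and Ndufb7, which stood in the KO list alone, shared bases with WT peaks assigned to another gene.

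The authors named each peak after a gene that it need not lie in, and 71 of the 92 KO peaks and 43 of the 57 WT peaks overlapped the RefSeq extent of the gene they were named for. Counting those alone, 60 genes had a peak in KO and 34 in WT, with 31 in both. In KO alone stood 29 of 63 (46%), against 23.2% of all 10175 genes with a peak inside the gene, and in WT alone 3 (4.76%), against 10.6%. Among the 29 were Cox6a2, Cox6b1, Ndufb7 and Uqcr11, whose KO peaks inside the gene shared bases with WT peaks named for another gene. Their absence on the WT side is thus one of assignment, and the shares of all genes were counted by name in the same way. Atp5l, Ndufa11b, Ndufa12 and Ndufs8 had no peak inside the gene in either list. The peaks named for them lay in Ube4a and Gm30934 for Atp5l, in Senp2 for Ndufa11b, in Nr2c1 for Ndufa12 and in Aldh3b1 for Ndufs8. Some of the most enriched peaks named for respiratory chain genes belonged to neighbours in the same way. The Cox8a peak with a fold of 8.15 in KO and the one with a fold of 17.3 in WT lay in Naa40, the Atp5j2 peak with a fold of 7.48 in KO lay in Zkscan14, and the Ndufa11 peaks with folds of up to 10.6 in KO and 8.16 in WT lay in Ranbp3.

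Within each list the peaks of respiratory chain genes had low enrichment. The fold, IP over input, is the authors' own value for a peak and describes peaks within 1 list. In the KO list the median fold was 2.28 for the 92 peaks and 1.97 for the 71 inside the gene, against 3.15 for all 21031 peaks. In the WT list it was 1.62 for the 57 peaks and 1.51 for the 43 inside the gene, against 3.74 for all 16709 peaks. A fold under 2 was held by 42.4% of the KO peaks (39 peaks) and 59.6% of the WT peaks (34 peaks), against 25.5% of the whole KO list and 23% of the whole WT list. By the authors' peak p, however, 32 KO peaks (34.8%) reached 1e-10 or lower, against 24.5% of the KO list, while 7 WT peaks (12.3%) did, against 30.8% of the WT list.

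**Figure D1:**
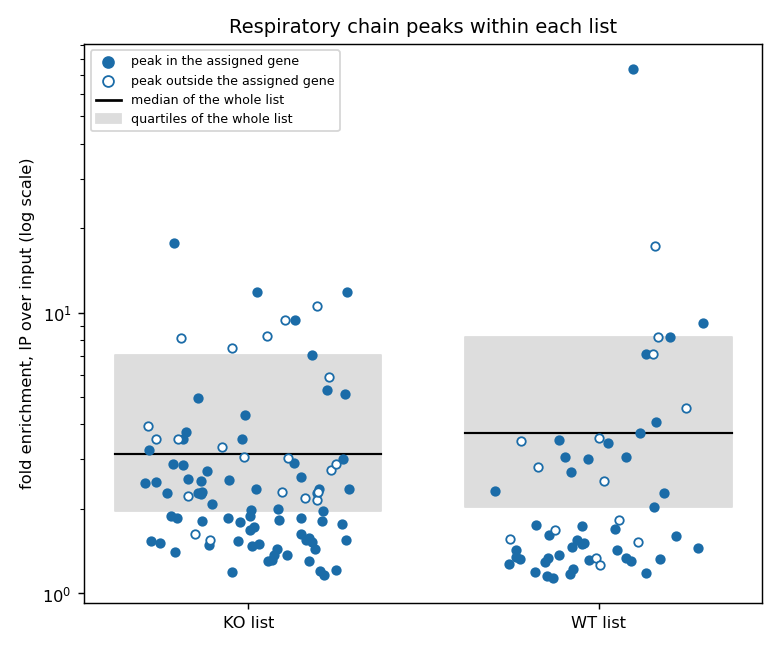
Fold enrichment of IP over input (log scale) for each peak assigned to a respiratory chain gene, 92 in the KO list and 57 in the WT list. Filled points lie in the assigned gene and open points outside it, and horizontal scatter is arbitrary. The line and band give the median and quartiles of the whole list, and most points lie under the line in both lists.

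Most of these peaks were placed at the 3′ side of the transcript. The authors annotated 80 of the 92 KO peaks (87%) and 48 of the 57 WT peaks (84.2%) to a 3′ UTR, against 64.1% of the KO list and 59.6% of the WT list. The median peak covered 270 exonic bases in KO and 210 in WT, against 330 in the whole KO list and 391 in the whole WT list. Of KO 3′ UTR peaks inside the gene, 44 of 62 (71%) ended within 100 bases of the 3′ end of the gene, against 38% of those of other genes. Of WT 3′ UTR peaks inside the gene, 28 of 35 (80%) did, against 31.1% of those of other genes.

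Sharing of positions between the lists was uneven. Of the 92 KO peaks, 51 (55.4%, exact binomial 95% interval 44.7 to 65.8) overlapped a WT peak by 1 exonic base or more, against 61.6% of the KO list. Of the 57 WT peaks, 47 (82.5%, interval 70.1 to 91.3) shared a base with a KO peak, against 73.4% of the WT list. Each interval holds the share of its whole list.

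The strongest peak inside a respiratory chain gene was that of Ndufs4, an accessory subunit of complex I whose loss causes Leigh syndrome in humans. Its fold was 17.7 in the KO list and 73.5 in the WT list. Although annotated to a 3′ UTR, the peak spans the 5′ part of the gene, at chr13:114360942-114388258 in the KO list, and its 3′ edge lay 73147 bases from the 3′ end of the gene. The peaks of Ndufa13, another accessory subunit of complex I, were annotated to a 5′ UTR and had folds of 11.8 and 11.8 in KO and of 9.18 and 3.44 in WT, and they also lay in the extent of Tssk6. The lists give no strand for the peak itself, so the Ndufa13 peaks cannot be assigned to either gene.

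Cox7a2l, which encodes a protein that joins complexes III and IV into supercomplexes, had a single 3′ UTR peak in each list, with a fold of 2.91 in KO and 3.52 in WT. In the KO list the peak p of Cox7a2l was 1e-223, the smallest among the peaks inside these genes. Cox6a2 and Cox7a1 encode the heart and muscle isoforms of complex IV subunits and each had peaks in the KO list alone by name. The Cox6a2 peaks, with folds of 9.45 and 4.33, also lay in the extent of Itgad, an integrin gene, and shared bases with WT peaks. The Cox7a1 peak had a fold of 1.81 and a false discovery rate of 0.233. The 3 other muscle and heart isoforms looked for (Cox8b, Cox4i2 and Cox7b2) had no listed peak.

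Genes with no differential peak numbered 29. In complex I the highest of them was Ndufa13 in both lists, and the lowest were Ndufa8 in KO (fold 1.19) and Ndufb10 in WT (fold 1.14), both accessory subunits. In complex II the WT peak of Sdhb had a fold of 3.06. In complex III the KO peak of Uqcrfs1, the Rieske iron-sulfur protein, had a fold of 1.2. In complex IV the range ran from Cox7a2 (1.21) to Cox6a2 (9.45) in KO and from Cox7a2 (1.15) to Cox7b (4.08) in WT. In complex V it ran from Atp5o (1.16), the stalk protein that confers oligomycin sensitivity, to Atp5g3 (2.28), a c-ring gene, in KO, and from Atp5o (1.17) to Atp5j (8.16), a stalk subunit, in WT. The lowest Cox7a2 peaks of both lists also lay in the extent of Tmem30a. The Cox7b peak and the Atp5j peak with these WT folds had a false discovery rate of 0.05 or more. So did the peaks of Ndufa8, Ndufb10, Uqcrfs1, Cox7a2 and Atp5o with the folds given here, in each list named. In all, 15 of the 92 KO peaks (16.3%) did, against 35.1% of the KO list. Of the 57 WT peaks 17 (29.8%) did, the same share as in the WT list.

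The second comparison concerned the change in m6A enrichment between genotypes. The peaks of respiratory chain genes were mostly higher in KO, although most listed peaks of other genes were lower in KO. The authors' deposited table, which holds only peaks with a p under 0.05, assigned 41 peaks to 38 of the 67 genes, of which 36 (87.8%) were higher in KO and 5 lower, against 30.4% higher among all 6050 peaks. Of the 37 peaks inside the assigned gene, 35 (94.6%, exact binomial 95% interval 81.8 to 99.3) were higher in the authors' deposited table, against 28.0% of 4682 such peaks of all genes. At a false discovery rate under 0.05 the authors' deposited table left 35 of the 41 peaks, 32 of them higher, against 28.4% higher among all 4815 such peaks. Counted by gene, 35 of 67 (52.2%) had at least 1 higher peak in the authors' deposited table, against 13.0% of all genes with a listed peak. At least 1 lower peak was held by 5 of 67 (7.46%), against 25.7%. No share of all genes with a differential peak of either direction is given here to set beside the 38 of 67.

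The changes were small. Over the 37 peaks inside the gene the authors' deposited table gave a median log2 ratio, KO over WT, of 0.49 (order-statistic 95% interval 0.44 to 0.58), against −0.40 for all peaks of the table. The 35 higher peaks had a median of 0.49 and ranged over 0.12 to 1.13 in the authors' deposited table, against a median of 0.62 for all 1838 higher peaks. A log2 ratio under 0.5 was held by 19 of these 35 in the authors' deposited table, and 1, that of Sdhc, was above 1. All 35 overlapped a peak of the KO list, 21 also overlapped a peak of the WT list, and 14 did not. Among all higher peaks inside their gene, 66.4% overlapped a WT peak.

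**Figure D2:**
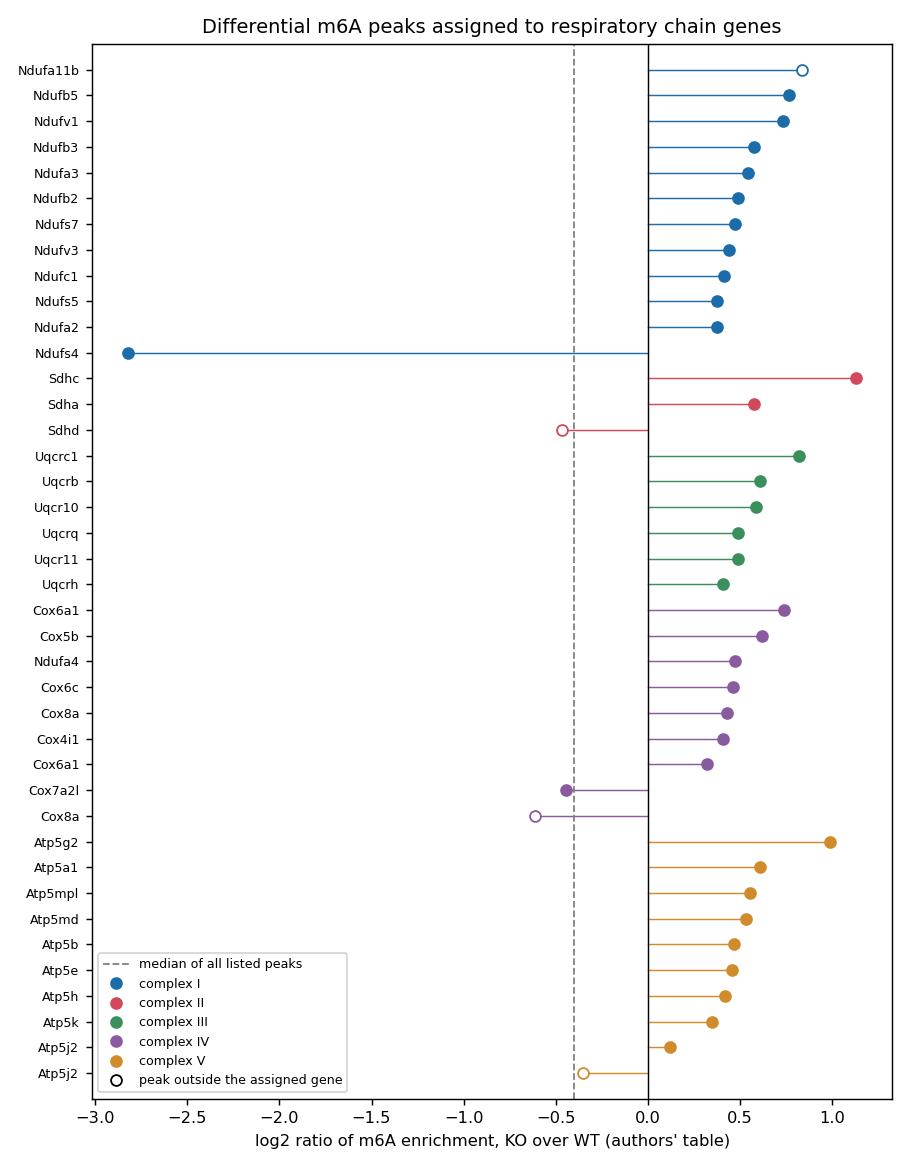
Log2 ratio of m6A enrichment between KO and WT (KO over WT), from the authors' deposited table, for 40 of the 41 differential peaks assigned to a respiratory chain gene, ordered by complex. Filled points lie in the assigned gene and open points in a neighbour, and the dashed line is the median of all 6050 peaks (−0.40). Of the filled points, 34 are above 0 and 2, Ndufs4 and Cox7a2l, are below.

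In complex I, 11 peaks in 11 genes were higher inside the gene and 1 was lower. In the authors' deposited table the largest log2 ratios of complex I were those of Ndufb5 (0.77), an accessory subunit of the membrane arm, and Ndufv1 (0.73), the flavoprotein that binds NADH. Their input levels were 6.14 FPKM in KO and 6.73 FPKM in WT for Ndufb5, and 13.3 FPKM in KO and 14.8 FPKM in WT for Ndufv1. The authors' deposited table gave 0.47 for Ndufs7, the core subunit that holds the last iron-sulfur cluster. The accessory subunits Ndufb3 (0.58), Ndufa3 (0.54), Ndufb2 (0.49), Ndufv3 (0.44), Ndufc1 (0.41), Ndufs5 (0.38) and Ndufa2 (0.38) also held higher peaks by the authors' deposited table. Those of Ndufc1, Ndufs7 and Ndufa3 had a false discovery rate of 0.05 or more. The lower peak was that of Ndufs4, with a log2 ratio of −2.82 and a false discovery rate of 0.0407 in the authors' deposited table, while its input level was 7.92 FPKM in KO and 7.83 FPKM in WT.

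In complex II, both peaks inside a gene were higher. Sdhc, a membrane anchor of succinate dehydrogenase, had the largest ratio of all 37, 1.13 with a false discovery rate of 1.91e-09 in the authors' deposited table. Its peak lay at chr1:171129131-171129311, at the 3′ end of the gene, and overlapped a KO peak with a fold of 2.88 and no WT peak. Sdhc had 20.4 FPKM in KO input and 22.1 FPKM in WT input. Sdha, the catalytic flavoprotein, had a ratio of 0.58 in the authors' deposited table, with 49.1 FPKM in KO input and 52.1 FPKM in WT input. The peak named for Sdhd (−0.47 in the authors' deposited table) lay in Nkapd1.

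In complex III, 6 of 7 genes had a peak inside the gene that was higher, and none had a lower one. Uqcrc1, a core protein of the complex, had the largest ratio, 0.82 in the authors' deposited table, with 19.4 FPKM in KO input and 20.1 FPKM in WT input. In the authors' deposited table the ratios of the small subunits were 0.61 for Uqcrb, 0.59 for Uqcr10, 0.49 for Uqcrq, 0.49 for Uqcr11 and 0.41 for Uqcrh. The remaining gene, Uqcrfs1, had no differential peak.

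In complex IV, 7 peaks in 6 genes were higher inside the gene and 1 was lower. Cox6a1, the isoform of subunit 6A outside muscle, had 2 of them in the authors' deposited table. The peak at the 3′ UTR had a ratio of 0.74. The other, with a ratio of 0.32, was annotated outside the UTRs, covered 293 exonic bases and had its 3′ edge 252 bases from the gene end. The input level of Cox6a1 was 144 FPKM in KO and 142 FPKM in WT. The authors' deposited table gave 0.62 for Cox5b, 0.47 for Ndufa4, 0.46 for Cox6c, 0.43 for Cox8a and 0.41 for Cox4i1, the subunit through which the complex is regulated by ATP. Of the 37 genes with a listed level Cox8a was the most abundant, with 191 FPKM in KO input and 196 FPKM in WT input, followed by Cox4i1, with 169 FPKM in KO input and 172 FPKM in WT input. The lower peak was that of Cox7a2l, with a log2 ratio of −0.45 and a false discovery rate of 2.51e-27 in the authors' deposited table, while its input level was 135 FPKM in KO and 131 FPKM in WT. The other peak named for Cox8a (−0.61 in the authors' deposited table) lay in Naa40.

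In complex V, 9 peaks in 9 genes were higher inside the gene and none was lower. Atp5g2, a gene for the proton-carrying c-ring, had the largest ratio, 0.99 with a false discovery rate of 0.000141 in the authors' deposited table, and 57.2 FPKM in KO input and 60.7 FPKM in WT input. The catalytic head was represented by Atp5a1 (0.61) and Atp5b (0.47) in the authors' deposited table, which encode its alpha and beta subunits. Atp5a1 had 109 FPKM in KO input and 114 FPKM in WT input, and Atp5b had 79.6 FPKM in KO input and 84.6 FPKM in WT input. In the authors' deposited table the ratios were 0.45 for Atp5e, a subunit of the central stalk, 0.42 for Atp5h, a subunit of the peripheral stalk, and 0.55, 0.53, 0.35 and 0.12 for the membrane subunits Atp5mpl, Atp5md, Atp5k and Atp5j2. The Atp5j2 peak had a false discovery rate of 0.0832. The other Atp5j2 peak (−0.35 in the authors' deposited table) lay in Zkscan14, and the peak named for Ndufa11b, a complex I gene, lay in Senp2 with a ratio of 0.83 in the authors' deposited table.

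The higher peaks lay at the very end of the gene. For the 33 annotated to a 3′ UTR, the median distance from the 3′ edge of the peak to the 3′ end of the RefSeq gene was 0 bases (order-statistic 95% interval −3 to 13, where a negative value is past the end), and 30 (90.9%) ended within 100 bases of it. The exceptions were Ndufb5 (352 bases), Uqcrq (1003 bases) and Ndufb2 (3143 bases). Among other genes, 66.2% of 1101 higher 3′ UTR peaks and 20.9% of 2134 lower ones ended within 100 bases of the gene end. The 33 peaks were also short, with a median of 151 exonic bases, against 209 for the other higher peaks and 957 for the other lower peaks. Cox7a2l, the lower gene of complex IV, ended at the gene end too (0 bases) but its peak covered 621 bases.

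**Figure D3:**
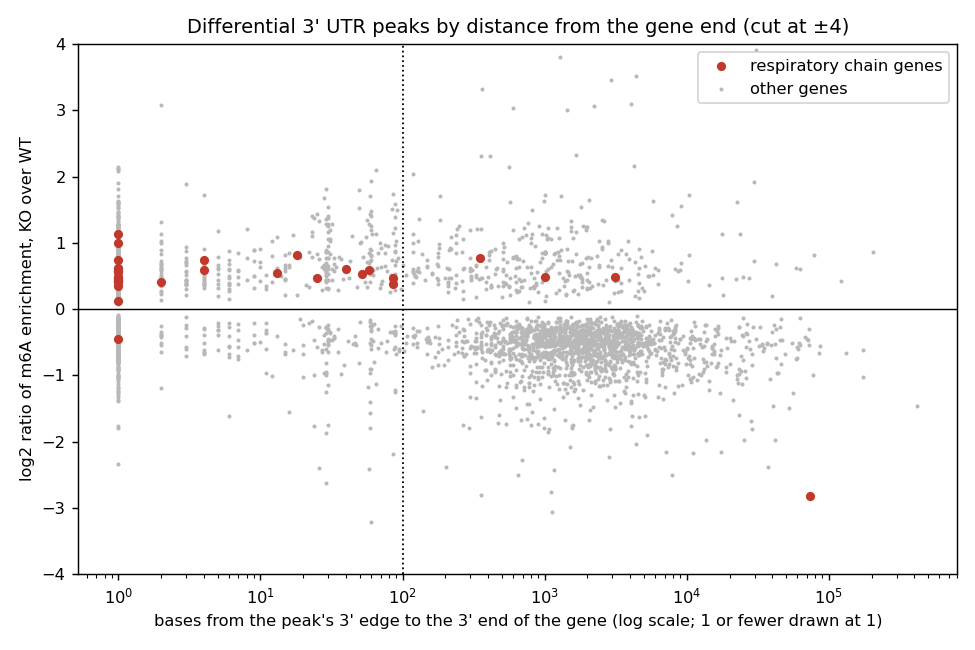
Log2 ratio of m6A enrichment (KO over WT), from the authors' deposited table, against the distance in bases from the 3′ edge of the peak to the 3′ end of the gene (log scale), for 3156 of 3270 differential 3′ UTR peaks inside their gene. Red points are the 35 peaks of respiratory chain genes and grey points those of other genes, with 8 peaks beyond 4 in absolute ratio and 106 ending more than 200 bases past the gene end left out. The dotted line marks 100 bases, and 31 of the red points lie at or left of it, 30 of them above 0.

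Abundance and position moved with the direction of change in the whole table, and the share of higher peaks was therefore set beside genes of like level and peaks of like position, a split chosen after the values were seen. Differential peaks whose gene had a listed level were divided into 5 classes of equal size by the mean input of the gene. Of the 37 respiratory chain genes with a level, 26 fell in the top class (mean of at least 21.5 FPKM). Among 3′ UTR peaks inside the gene, 33 of 35 (94.3%) of the respiratory chain genes were higher in the authors' deposited table, against 34% of other genes. In the top class the counts in the authors' deposited table were 23 of 24 (95.8%, exact binomial 95% interval 78.9 to 99.9) for respiratory chain genes and 504 of 788 (64%) for other genes. Among top-class peaks that ended within 100 bases of the gene end they were 22 of 23 (95.7%, interval 78.1 to 99.9) for respiratory chain genes, against 391 of 472 (82.8%, interval 79.1 to 86.1) for other genes, and these intervals overlap. Leaving out the peaks of that group with the most extreme scores (1e-30 or lower, in a score column that the header does not define), 21 of 21 peaks of respiratory chain genes and 267 of 271 (98.5%) of other genes were higher in the authors' deposited table. In the class below the top all 8 peaks of respiratory chain genes were higher, against 34.2% of 730 for other genes. That comparison is not matched by position. The 8 peaks all ended within 100 bases of the gene end, while the 730 were of any position. Over all levels, 62% of other genes' 3′ UTR peaks within 100 bases of the gene end and 18.1% of those farther were higher in the authors' deposited table. Other abundant transcripts with a peak at the gene end were thus also mostly higher in KO, and the part of abundance or of the fragments at transcript ends in these ratios was not tested.

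The third comparison concerned the level of the transcripts in the input libraries. Levels were listed for 37 of the genes, and the values of the genotypes lay close together. The 37 genes ranged over 2.72 to 191 FPKM with a median of 42.4 in KO, and over 2.91 to 196 FPKM with a median of 42.5 in WT. All genes with a listed level and a mean of at least 1 FPKM (3679 genes) had a median of 8.26 FPKM in KO and 7.72 FPKM in WT. On the log2(FPKM + 1) scale, which understates the differences of low genes, the median KO minus WT difference of the 37 genes was −0.04 (order-statistic 95% interval −0.07 to −0.01), and the extremes were −0.28 and 0.10. That interval covers the spread over genes of the same libraries and gives no error for the genotypes, which had 1 input library each. The 3679 genes had a median difference of 0.07, and the genes of the top input class one of 0.02.

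Slightly lower levels in KO were the commoner case. KO was below WT in 27 of 37 genes (73%, exact binomial 95% interval 55.9 to 86.2), against 31.0% of all 3679 genes and 43.6% of the 855 genes of the top class. These groups are not alike, since a level is listed only for a gene with a differential peak. Of the 37 genes, 34 had a higher peak. Counted by peak, 36 of the 41 differential peaks named for respiratory chain genes were higher, against 30.4% of all 6050. Peak ratio and level share the input libraries, so the direction of the peaks and these shares are not independent, and their relation was not tested. In 0 of the 37 genes were KO and WT apart by 1.5-fold or more in either direction, against 3.45% of all genes. By the authors' own p-values for the input difference, the smallest of the 37 was 0.584, and each adjusted p was 1. In bulk RNA, fewer cells of a type and less RNA per cell cannot be told apart. By complex, KO was below WT in 8 of 12 genes of complex I, 3 of 3 of complex II, 5 of 6 of complex III, 4 of 7 of complex IV and 7 of 9 of complex V.

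The 5 genes with the largest decrease were Ndufs5, an accessory subunit of complex I (26.8 FPKM in KO and 32.8 FPKM in WT, log2 difference −0.28), Uqcrb (48.6 FPKM in KO and 56.3 FPKM in WT, −0.21), Ndufv1 (−0.15), Uqcr10 (66.3 FPKM in KO and 73.2 FPKM in WT, −0.14) and Ndufb5 (−0.11). The 5 with the largest increase were Atp5j2 (21.6 FPKM in KO and 20.0 FPKM in WT, 0.10), Ndufb3 (32.1 FPKM in KO and 30.1 FPKM in WT, 0.09), Uqcrq (30.0 FPKM in KO and 28.2 FPKM in WT, 0.09), Ndufa4 (44.8 FPKM in KO and 42.5 FPKM in WT, 0.07) and Ndufv3 (12.7 FPKM in KO and 12.2 FPKM in WT, 0.05). Across 36 genes, Spearman's rho between the log2 ratio of the peaks and the input difference was −0.45, and between the ratio and mean input −0.14. These points share the input libraries, from which both the ratio and the level were made, and genes are not independent replicates. Several of these genes have processed pseudogene copies or near-identical paralogs, the c-ring genes Atp5g2 and Atp5g3 among them, and no source used here gives how reads were shared among such copies.

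**Figure D4:**
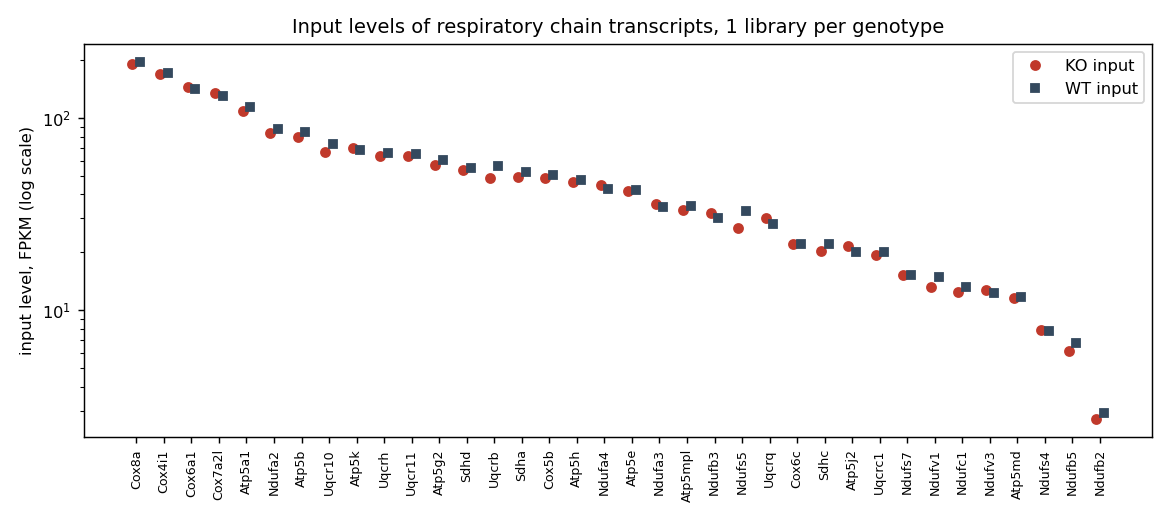
Input level in FPKM (log scale) of 36 of the 37 respiratory chain genes with a listed level, ordered by their mean, with KO input as red circles and WT input as dark squares, 1 library each. The points of a gene lie close together throughout, between 2.72 and 191 FPKM in KO and between 2.91 and 196 FPKM in WT.

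Lists of related mitochondrial genes were set beside the subunits and beside the 28.0% of higher peaks over all peaks inside their gene. Among the assembly factors that build the complexes but do not stay in them, the authors' deposited table gave 4 higher (23.5%, near the share of all genes) and 13 lower peaks inside the gene, with a median log2 ratio of −0.49. Those with the largest ratios in the authors' deposited table were Ndufaf4 (−1.56) for complex I, Sdhaf2 (−0.87) for complex II and Coa5 (0.69) for complex IV. Regulators of mitochondrial gene expression had 0 higher and 9 lower peaks inside the gene in the authors' deposited table, with a median of −0.63. In the authors' deposited table they were led by Tfb2m (−1.64), a mitochondrial transcription factor, the coactivator Pprc1 (−0.93) and Yy1 (−0.88), whose motif is among those counted in the promoters. Median input differed between the lists as well, at 42.9 FPKM for the subunits, 7.87 FPKM for the assembly factors and 4.80 FPKM for the regulators, as means of KO and WT. None of the 9 regulator peaks ended within 100 bases of the gene end, against 31 of 37 subunit peaks.

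The tricarboxylic acid cycle, which feeds the chain, had 3 higher and 2 lower peaks inside the gene in the authors' deposited table. Both lower peaks lay in Ogdh (−0.90 and −0.835) and were annotated to a 5′ UTR. The 3 higher ones, Idh3b (0.81) and Fh1 (0.55) among them, ended within 100 bases of the gene end. Of these 3, only that of Idh3b had a false discovery rate under 0.05. For electron carriers and quinone synthesis the authors' deposited table gave 2 higher and 0 lower peaks inside the gene, in Etfa (0.64) and Coq2 (0.44). The mitochondrial ribosome, which makes the subunits encoded in mitochondria, had 10 higher and 15 lower peaks inside the gene by the authors' deposited table, with a median ratio of −0.32. Abundant housekeeping genes outside the mitochondrion were nearer to the subunits. Cytosolic ribosomal proteins had 42 higher and 3 lower peaks inside the gene in the authors' deposited table, with a median ratio of 0.48, and proteasome subunits had 9 higher and 3 lower, with a median of 0.42. Of the ribosomal protein peaks within 100 bases of the gene end 23 of 24 were higher, and of those farther 19 of 21. These lists describe where the subunits stand and nothing in them was tested against another.

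**Figure D5:**
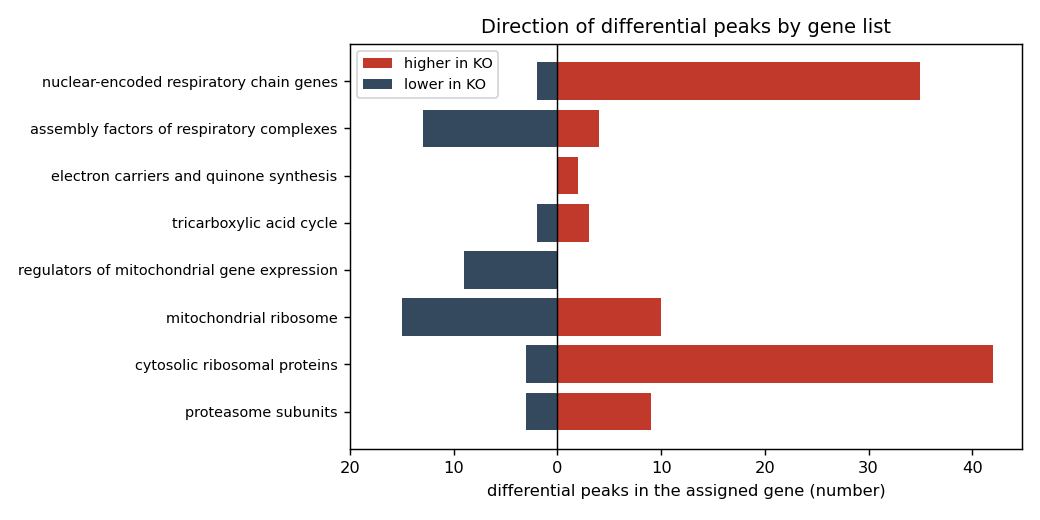
Number of differential peaks inside the assigned gene that were higher in KO (red, to the right) and lower in KO (dark, to the left) according to the authors' deposited table, for the respiratory chain genes and 7 other lists. The respiratory chain genes (35 higher and 2 lower) and cytosolic ribosomal proteins (42 higher and 3 lower) lie almost wholly to the right, and the regulators of mitochondrial gene expression (0 higher and 9 lower) wholly to the left.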

How the data were processed

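The files were a list of m6A peaks for KO and for WT and a table of differential peaks, each from 1 IP and 1 input library per genotype. Per the file headers, the authors deposited for each listed peak its ratio of IP over input (the fold enrichment), a p-value and a log10 score of the false discovery rate. For each differential peak they deposited the log2 ratio of KO over WT, a p-value and a score, and for its gene the input FPKM. Per the submitters' processing notes, fastp, HISAT2, HOMER, ChIPseeker, StringTie, edgeR and the build mm10 were used, with no step named. The peak caller is not stated in them or elsewhere in the sources used here.

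Peaks were compared with RefSeq gene extents (GRCm38) and with each other on exonic blocks with bedtools 2.31.1, at a minimum of 1 base and ignoring strand, since the lists give only the gene's strand. Shares have exact binomial intervals and medians order-statistic intervals, at 95%. Input differences used a pseudocount of 1 FPKM and a mean of at least 1 FPKM. The counting steps were checked on simulated data. The scripts ran under Python 3.11.15 with scipy 1.17.1, pandas 2.3.3, numpy 2.4.6 and, for figures, matplotlib 3.10.9. The genes, the lists and the naming rule were chosen with earlier results of these data known. The rule named every gene with a differential peak, the highest and lowest folds per complex among the others, the 5 largest input differences each way and up to 3 genes per related list, and 1 gene that it named is not reported here by itself, only within counts and medians. Other genes, the lists of cytosolic ribosomal proteins and proteasome subunits, the motifs and the splits by level and position were chosen after values were seen. Promoter sequences came from a RefSeq table (GRCm38.p6), and transcript sequences under the peaks were not analysed here.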

Additional observations from a re-analysis of the deposited data

How the results depend on the processing

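Of 41 alternative values over these results, 22 stayed close to the value given and 19 moved. Direction was looked at only for the median log2 ratio and the median input difference, and 0 of their alternatives changed it. Taking off the median of the table or of all listed genes could not have changed it. At a fold of at least 4 the KO list kept 15 peaks and the WT list 9, and with a peak p of at most 1e-10 they kept 32 and 7. The share of KO peaks shared with WT was 29.3% with overlap of 50% of both peaks, 73.3% at the stricter fold and 75% at the stricter p. The share of WT peaks shared with KO was 49.1%, 66.7% and 100% under the same settings. The WT median fold was 3.52 at the stricter p. Higher differential peaks numbered 22 at a p under 0.001 and 1 at an absolute log2 ratio of at least 1. Lower ones numbered 3 at a false discovery rate under 0.05, 2 at a p under 0.001, 1 at an absolute log2 ratio of at least 1 and 2 inside the gene. Relative to the median of the table the median log2 ratio was 0.88, and relative to all listed genes the median input difference was −0.11. Fewer peaks enter under each stricter limit, and beyond that the cause was not tested. No paired analysis was possible because each genotype had 1 library of each kind and no replicates, and no library could be left out. Read depth is unknown, and peaks tested but not listed are unknown, so genes without a differential peak cannot be read as unchanged.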
